A study of Sus scrofa with 9 samples.

Results

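Parvalbumin and 5 genes of the fast fibre contractile and calcium machinery, MYL1, MYLPF, TNNC2, ATP2A1 and CASQ1, were followed in the back muscle of finishing pigs fed different amounts of lysine. The members were chosen by name, as all probe sets whose only gene symbol in the platform annotation is one of these 6. This gave 6 probe sets, 1 per gene (Entrez Gene 397666 for MYL1, 474162 for MYLPF, 414905 for TNNC2, 100516962 for ATP2A1, 100156448 for CASQ1 and 100157265 for PVALB), among the 27558 probe sets and 12361 named genes of the arrays. The samples were taken from longissimus dorsi, a long back muscle, between ribs 10 and 12, from 9 male pigs of about 95 kg at the start, with 1 whole-transcript array per pig. For 5 weeks 3 pigs received a diet deficient in lysine (pigs 1, 2 and 3), 3 an adequate diet (pigs 5, 6 and 7) and 3 a diet with lysine in excess (pigs 9, 10 and 11). The labels state no breed, age or genotype. Lysine is an essential amino acid, and the study asked about its effect on the transcripts of finishing pigs' muscle.

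A fast muscle fibre contracts when calcium leaves the sarcoplasmic reticulum, binds troponin C and frees actin for myosin, and it relaxes when calcium is pumped back. Fast and slow fibres carry out these steps with different gene products, and the longissimus of pigs consists mostly of fast fibres. MYL1 and MYLPF encode the fast essential and regulatory myosin light chains, TNNC2 fast troponin C, ATP2A1 the fast calcium pump SERCA1, CASQ1 the calsequestrin that stores calcium in the reticulum, and PVALB the cytosolic calcium buffer parvalbumin, which speeds relaxation.

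The deposited values are log2 signals, with the base taken from their range of 3.10 to 14.3. Differences below are log2 differences between diet means with the standard error (SE) and 95% interval of a limma model over all 9 arrays, and an SD describes 3 pigs on 1 diet. Of the fibre markers ACTA1, NEB, MYH1 and MYH7, which are the 4 of 10 measured, the mean level lay between 12.76 and 12.99 in every pig, while all 4 measured heart markers (of 6) lay under the median of all probe sets, 5.07. The array of excess pig 11 correlated with the others at 0.904 to 0.956, against 0.977 to 0.992 among the other 8 arrays. Its probe sets at levels from 7 to 9 lay a median of 0.51 under the other 2 excess pigs (a deviation of -0.51), whereas those at 13 and above lay 0.04 over them. The deviations of the members on that array ran from -0.09 (ATP2A1) to 0.06 (MYLPF). By limma's array quality weights, used only in an alternative fit, the 3 excess arrays ranked lowest. Excess pig 10 had a weight of 0.192, excess pig 11 one of 0.220 and excess pig 9 one of 0.678. The remaining weights lay between 0.902 (deficient pig 3) and 2.462 (adequate pig 6). Each comparison with the excess diet thus rests on the arrays of lowest weight.

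Parvalbumin was the member that differed most between the diets. In the deficient pigs its log2 signal was 10.13 in pig 1, 10.65 in pig 2 and 10.87 in pig 3. The adequate pigs gave 11.17, 11.07 and 10.97, and the excess pigs 11.03, 11.02 and 10.99. All 3 deficient pigs thus lay below all 6 others, with pig 1 far below its companions, and the excess pigs lay within the range of the adequate ones. The mean was 10.55 ± 0.38 (SD, n = 3) with deficient lysine, 11.07 ± 0.10 with adequate and 11.01 ± 0.02 with excess lysine. PVALB was 1.43-fold lower in deficient than in adequate pigs (log2 difference -0.52 ± 0.17 SE, 95% interval -0.92 to -0.12), and 1.38-fold lower than in excess pigs (-0.46 ± 0.17, interval -0.86 to -0.07). Between excess and adequate pigs it differed by -0.06 ± 0.17, with an interval from -0.45 to 0.34.

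None of these differences passed limma's test after Benjamini-Hochberg adjustment over all probe sets. For deficient against adequate pigs the unadjusted limma p of PVALB was 0.0169 (adjusted p = 1.00), and for deficient against excess pigs 0.0278 (adjusted p = 0.872). The F test over the 3 diet means gave PVALB an unadjusted limma p of 0.0322 (adjusted p = 0.933). By the adjusted rule 0 of 27558 probe sets (0%) were called in each of the 3 comparisons and in the F test, by limma. At an unadjusted limma p under 0.05 there were 511 (1.85%) between deficient and adequate pigs, 981 (3.56%) between excess and adequate pigs, 1124 (4.08%) between deficient and excess pigs and 700 in the F test. At an unadjusted p under 0.05, 1 of the 6 members, PVALB, was lower in deficient than in adequate pigs, where 1.01% of all probe sets were. The deficient pigs lay fully below the adequate ones for 1 of 6 members, where they did for 3.07% of probe sets. Against the excess pigs PVALB was again the 1 of 6 at that p, with a background of 1.23%, and fully lower, with a background of 2.19%. In the F test 1 of 6, PVALB, was under 0.05, beside 2.54% of probe sets. Both deficient comparisons use the same deficient pigs, so they are not separate evidence. The members were chosen with earlier results of these data known, so the shares of all probe sets are a background and no test.

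The size of the PVALB difference depended on deficient pig 1. Without it the log2 difference from the adequate pigs was -0.31 and from the excess pigs -0.25, and without pig 3 they were -0.68 and -0.62. The direction held with each pig of the compared diets left out in turn. Leaving out a pig of the diet not compared cannot change the difference. The unadjusted limma p against the adequate pigs was 0.0159 without pig 1 and 0.055 without adequate pig 5. In bulk muscle, fewer fast fibres and less PVALB transcript per fibre cannot be told apart.

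**Figure D1:**
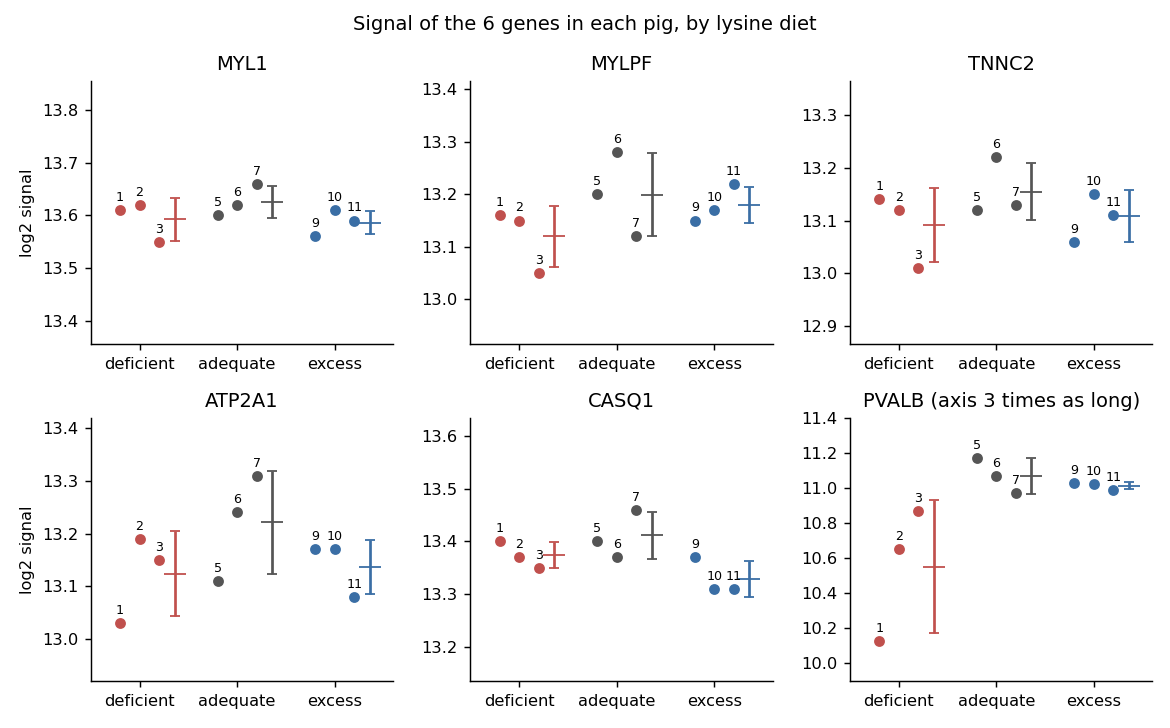
Log2 signal (vertical axis) of the 6 genes in each pig, grouped by diet, with pig numbers above the points and the mean ± SD of each diet's 3 pigs beside them. PVALB is lower in the 3 deficient pigs, at 10.13 to 10.87, than in all others, at 10.97 to 11.17, and its axis is 3 times as long as the others.

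The fast myosin light chains differed little. MYL1, the essential chain that braces the lever arm of the myosin head, gave 13.61, 13.62 and 13.55 in deficient, 13.60, 13.62 and 13.66 in adequate and 13.56, 13.61 and 13.59 in excess pigs. Its whole range over the 9 pigs was 0.11, the diets overlapped, and the pig with the lowest value was deficient pig 3. Against adequate pigs MYL1 differed by -0.03 ± 0.05 with deficient lysine (95% interval -0.16 to 0.09) and by -0.04 ± 0.05 with excess lysine (-0.17 to 0.09). A change of MYL1 larger than 1.12-fold downwards or 1.07-fold upwards lay outside the interval for the deficient pigs.

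MYLPF, the regulatory chain that myosin light chain kinase phosphorylates, gave 13.16, 13.15 and 13.05 in deficient pigs. The adequate pigs gave 13.20, 13.28 and 13.12 and the excess pigs 13.15, 13.17 and 13.22. Deficient pig 3 was lowest and adequate pig 6 highest, and every pair of diets overlapped. The log2 difference between deficient and adequate pigs was -0.08 ± 0.07 (95% interval -0.23 to 0.07), and between excess and adequate pigs -0.02 ± 0.07 (-0.17 to 0.13). The sign of the latter turned, to 0.02, without adequate pig 6.

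Fast troponin C, the calcium sensor of the thin filament, had the same lowest and highest pig. TNNC2 gave 13.14, 13.12 and 13.01 in deficient pigs, 13.12, 13.22 and 13.13 in adequate pigs and 13.06, 13.15 and 13.11 in excess pigs. Its lowest value was again in deficient pig 3 and its highest in adequate pig 6. It differed from the adequate pigs by -0.06 ± 0.07 with deficient (95% interval -0.22 to 0.09) and by -0.05 ± 0.07 with excess lysine (-0.20 to 0.10).

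Among the 6 members, ATP2A1 had the widest range after PVALB. The pump gene gave 13.03, 13.19 and 13.15 in deficient, 13.11, 13.24 and 13.31 in adequate and 13.17, 13.17 and 13.08 in excess pigs. Deficient pig 1 was lowest, as for PVALB, and adequate pig 7 was highest. Its difference from the adequate pigs was -0.10 ± 0.08 with deficient lysine (95% interval -0.27 to 0.08) and -0.08 ± 0.08 with excess lysine (-0.26 to 0.09), and the diets overlapped.

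CASQ1 gave 13.40, 13.37 and 13.35 in deficient, 13.40, 13.37 and 13.46 in adequate and 13.37, 13.31 and 13.31 in excess pigs. The excess pigs lay below the adequate ones, by a gap of only 0.0038 between excess pig 9 and adequate pig 6. Calsequestrin was thus 1 of 6 members fully below the adequate pigs with excess lysine, where 3.84% of all probe sets were. The log2 difference was -0.08 ± 0.06 (95% interval -0.21 to 0.05). Its unadjusted limma p was 0.178 and its adjusted p 0.757. The within-diet SD of CASQ1 itself was 0.0356, and limma's SE is wider than that SD alone would give. With deficient lysine it was -0.04 ± 0.06 (-0.17 to 0.09).

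Between deficient and excess pigs the 5 genes other than PVALB differed by between -0.06 (MYLPF) and 0.05 (CASQ1). The 95% intervals of all 5 included 0 and none reached beyond -0.21 or 0.18. The signs of MYL1, TNNC2 and ATP2A1 in this comparison turned under other processing or when 1 pig was left out.

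**Figure D2:**
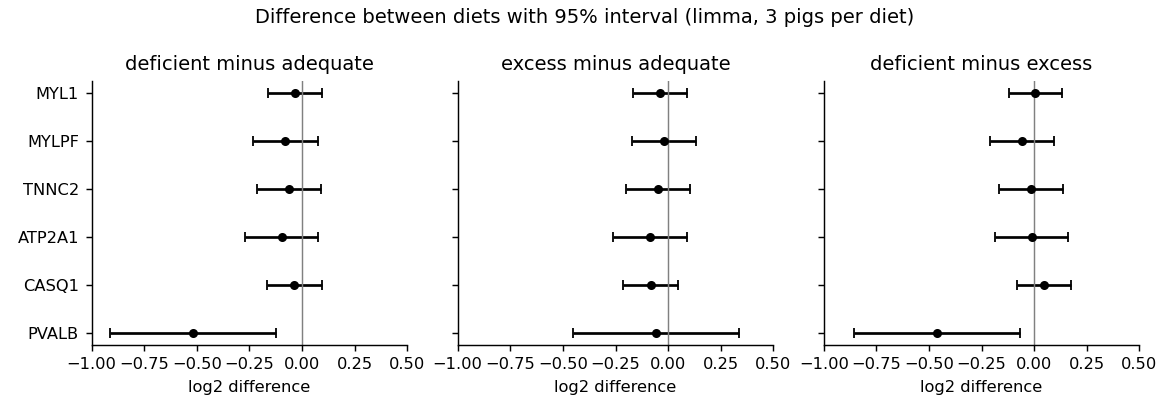
Log2 difference between diets (horizontal axis) of the 6 genes in the 3 comparisons, with 95% intervals from limma over 3 pigs per diet. The interval of PVALB leaves out 0 in both comparisons of the deficient pigs, before adjustment for the number of probe sets, and all others include 0.

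As a group, all 6 members had lower means with deficient than with adequate lysine (median difference -0.07), where 47% of all probe sets did and their median was 0.01. Without deficient pig 3 the median of the members was -0.04, with all 6 still lower. With excess lysine all 6 were lower as well (median -0.05, against 49.8% of probe sets and a median of 0.00061). Without adequate pig 6, 5 were lower and 1 higher (median -0.05). Both comparisons share the adequate pigs. Adequate pig 6 lay above the mean over the 9 pigs for 6 of 6 members and pig 7 for 5 of 6, while deficient pig 3 lay below it for 6 of 6. Between deficient and excess pigs 4 members were lower and 2 higher (median -0.01, beside 50% of probe sets and a median of 0.00011). After quantile normalization (median 0.03) or centring of arrays on their medians (median 0.04), 2 were lower and 4 higher. With the deposited values and without deficient pig 3, 3 were lower and 3 higher (median -0.0011). Leaving out excess pig 10 gave 2 lower and 4 higher (median 0.0045). Without deficient pig 1, deficient pig 2, excess pig 9 or excess pig 11 the median was between -0.04 and -0.02, with 4 or 5 lower.

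The lowest pig was not the same for all members. Deficient pig 3 held the lowest value of MYL1, MYLPF and TNNC2, the 3 members that belong to the filaments, while its PVALB was the highest of the deficient pigs. Deficient pig 1 held the lowest value of PVALB and ATP2A1, and excess pig 11 that of CASQ1. Among the 6 other fast genes measured pig 1 was lowest for 4.

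The 5 flat members lay near the upper end of the scale. Between 12 (MYL1) and 39 (TNNC2 and ATP2A1) probe sets were brighter, and the array maxima, at 14.1 to 14.3, were above them by a mean of 0.551 (MYL1) to 1.03 (TNNC2). At a level of 13 and above, where 46 probe sets lie, the median SD between pigs of a diet was 0.081, against 0.172 over all probe sets. The within-diet SD of the 5 genes ran from 0.0322 (MYL1) to 0.0788 (ATP2A1). PVALB, at a mean of 10.88, had 591 brighter probe sets and a within-diet SD of 0.226, compared with a median of 0.161 at levels from 10 to 11. The main limma fit draws the spread of each gene towards a value shared by probe sets of all levels. The SEs, intervals and p-values of the 5 bright genes are therefore wider or larger than their own spread would give. For PVALB the SE is slightly narrower. Whether signals near the maximum are compressed was not tested, so a small difference in these 5 genes is small on the scale of the array.

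**Figure D3:**
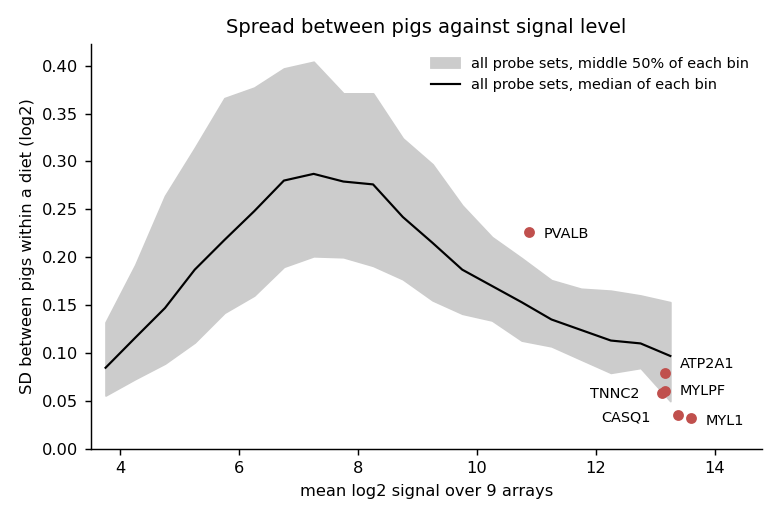
SD between pigs within a diet (log2, vertical axis) against mean log2 signal over the 9 arrays (horizontal axis); the line and band are the median and middle 50% of all probe sets in bins of signal, the points are the 6 genes. The 5 genes above 13 have an SD of 0.0322 to 0.0788, and PVALB, at 10.88, has 0.226.

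For 4 members the array also measures the counterpart of slow fibres: MYL2 for MYLPF, MYL3 for MYL1, TNNC1 for TNNC2 and CASQ2 for CASQ1. The fast minus slow log2 signal on the same array removes any offset that both genes share, and only its difference between diets is read here. Across 12 tests of 4 ratios and 3 comparisons, 4 separated the diets completely, which for 3 against 3 pigs gives the smallest exact two-sided permutation p possible, 0.1 (adjusted over the 12, p = 0.3). No ratio could therefore pass. All 4 separations were from the same 3 adequate pigs, so they are not separate evidence.

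TNNC2 over TNNC1 was the ratio that separated the adequate pigs from both other diets. It was 1.92, 1.99 and 1.88 in deficient pigs, 2.33, 2.47 and 2.06 in adequate pigs and 1.69, 1.97 and 1.66 in excess pigs. Deficient minus adequate was -0.35 ± 0.13 (SE) and excess minus adequate -0.51 ± 0.16. The larger part lay with the slow gene, since TNNC1 itself differed by 0.29 and 0.47, and TNNC2 by -0.06 and -0.05.

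MYLPF over MYL2 was lower in excess than in adequate pigs. The excess pigs gave 0.54, 0.78 and 0.60 and the adequate pigs 0.93, 1.27 and 0.83. The deficient pigs gave 1.01, 1.07 and 0.74, which overlapped with both. The difference of excess minus adequate, -0.37 ± 0.15, again lay with the slow gene, since MYL2 differed by 0.35 and MYLPF by -0.02.

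MYL1 over MYL3 was lower in deficient pigs, at 1.13, 1.54 and 1.52, than in adequate pigs, at 1.54, 1.65 and 2.01, by -0.34 ± 0.19. The separation was very narrow, since deficient pig 2 and adequate pig 5 were both 1.54 after rounding. Excess pigs lay at 1.25, 1.76 and 1.63. MYL3, the slow essential light chain, differed by 0.31 between deficient and adequate pigs and MYL1 by -0.03. CASQ1 over CASQ2 overlapped in all comparisons, with differences of -0.26 ± 0.68 and -0.28 ± 0.76 against the adequate pigs. Here CASQ2, the slow and cardiac calsequestrin, ran from 5.44 to 7.69 between pigs of the adequate diet alone.

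**Figure D4:**
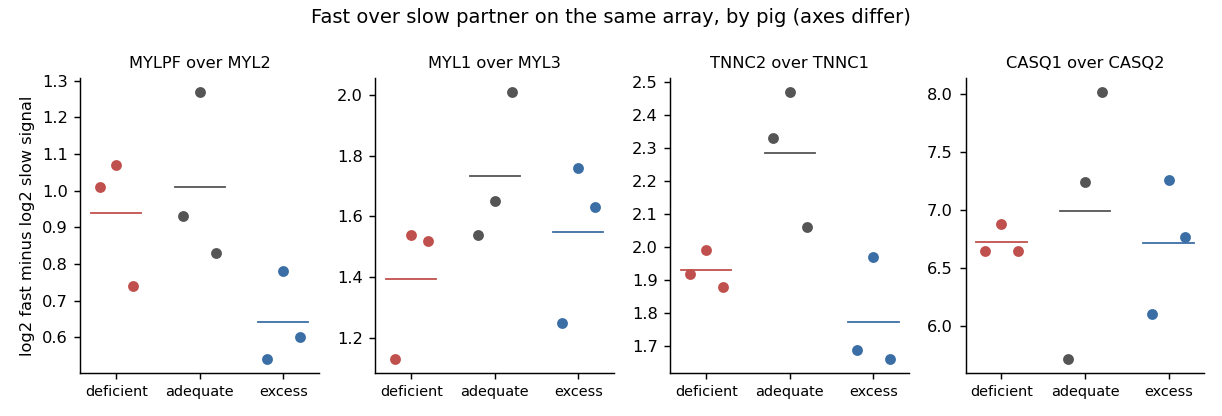
Log2 signal of a fast gene minus that of its slow partner on the same array (vertical axes, which differ in range) in each pig, with lines at the mean of each diet. For TNNC2 over TNNC1 the adequate pigs, at 2.06 to 2.47, lie above all deficient and excess pigs, at 1.66 to 1.99.

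Other genes of the fast programme were read from lists of the same kind, and none of their members passed an adjusted limma p of 0.05. For the counts of lower means in these lists, 47% of all probe sets were lower with deficient than with adequate lysine. With excess against adequate lysine it was 49.8%, and with deficient against excess lysine 50%. Of 13 other fast contractile genes 6 were measured, and 5 of them were lower in deficient than in adequate pigs (median -0.10, beside 47% of probe sets lower). MYLK2, the kinase that phosphorylates MYLPF, gave 9.74, 10.09 and 10.23 in deficient, 9.95, 10.65 and 10.48 in adequate and 10.45, 10.30 and 10.37 in excess pigs. It differed by -0.34 ± 0.19 between deficient and adequate and by -0.35 ± 0.19 between deficient and excess pigs, and lay fully lower in the latter, as 1 of the 6 genes, beside 2.19% of all probe sets. MYH1, a fast myosin heavy chain with near-identical copies, differed by -0.26 ± 0.16 and -0.27 ± 0.16, and MYBPC2, fast myosin-binding protein C, by -0.11 ± 0.07 and -0.07 ± 0.07. Without deficient pig 1 the median of the 6 genes against adequate pigs was -0.06, with 4 lower and 2 higher, and without adequate pig 6 it was -0.05, with 5 lower. Against excess pigs 4 of 6 were lower (median -0.06; -0.02 without deficient pig 1).

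With excess lysine the 6 other fast genes lay within 0.05 of the adequate pigs. Their differences ran from -0.05 (MYOZ1) to 0.02 (MYLK2), and TPM1, at -0.04 ± 0.05, was the 1 of 6 fully lower, by a gap of 0.0025, beside 3.84% of all probe sets. MYBPC2 differed by -0.04 ± 0.07. The split of 4 lower and 2 higher (median -0.04) became 3 and 3 after quantile normalization (median -0.01) and without excess pig 11 (median -0.01), and 6 lower after median centring (median -0.10) and without adequate pig 5 (median -0.07).

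The slow contractile genes had higher means with excess lysine. All 11 measured of 14 had higher means than in adequate pigs (median 0.28), as did 13824 of all 27558 probe sets. At an unadjusted limma p under 0.05, 3 of the 11 were higher (TNNC1, MYL2 and TPM3, slow tropomyosin), where 1.35% of probe sets were. Leaving out excess pig 9 gave 9 higher and 2 lower (median 0.16), and without excess pig 10 all 11 were higher (median 0.42). Without adequate pig 6 or adequate pig 7, 10 were higher and 1 lower (medians 0.23 and 0.28). With deficient lysine 7 of 11 were higher (median 0.09), with TNNC1 at 0.29 ± 0.11, at an unadjusted limma p under 0.05, beside 0.842% of probe sets higher. Another 2 of the 11 were lower at that p, beside 1.01% of probe sets. MYL6B, an alkali light chain, differed by -1.80 ± 0.42 and MYBPC1, slow myosin-binding protein C, by -0.24 ± 0.10. Between deficient and excess pigs 8 of 11 were lower (median -0.18), led by MYL6B at -2.38 ± 0.42, MYBPC1 at -0.43 ± 0.10 and MYL2 at -0.36 ± 0.11. At an unadjusted limma p under 0.05 there were 4 of 11 lower, beside 1.23% of probe sets. The median was -0.10 without excess pig 9 and -0.33 without excess pig 10. Against adequate pigs the median of the deficient pigs was 0.15 without deficient pig 2, 0.16 without adequate pig 5 and 0.06 without adequate pig 6 or 7.

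Of 33 further genes of calcium release, storage and reuptake 19 were measured. With excess lysine 18 of 19 were lower than with adequate (median -0.23), and 3 of 19 at an unadjusted limma p under 0.05, beside 2.21% of probe sets. These were CAMK2A, a calcium-dependent kinase (-0.42 ± 0.11), the plasma membrane calcium pump ATP2B4 (-0.55 ± 0.16) and FKBP1A, which binds the ryanodine receptor (-0.31 ± 0.12). A dimmer FKBP1A probe set, not counted here, averaged 9.55 in deficient, 9.61 in adequate and 9.47 in excess pigs. Its excess pigs overlapped with both other diets. Without excess pig 11, which held the lowest value of 13 of the 19, the median was -0.07 with 14 lower and 5 higher. The part of that array in this difference was not tested further.

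With deficient lysine 16 of the 19 were lower (median -0.06), but 10 of 19 without deficient pig 1 (median -0.02) and 11 without adequate pig 6 (median -0.03). Without deficient pig 2, deficient pig 3 or adequate pig 7 the median was between -0.13 and -0.10, with 14 or 16 lower. CAMK2A differed by -0.22 ± 0.11, ATP2B4 by -0.28 ± 0.16 and PPP3CB, a calcineurin subunit, by -0.19 ± 0.11. Between deficient and excess pigs 16 of 19 were higher (median 0.13), among them ASPH (0.56 ± 0.16) and FKBP1A (0.30 ± 0.12), the 2 at an unadjusted limma p under 0.05, beside 2.84% of probe sets. CAMK2A differed by 0.20 ± 0.11. The count was 11 of 19 without excess pig 11 (median 0.02), 12 without deficient pig 3 (median 0.05) and 16 without excess pig 9 (median 0.21). RYR1, the release channel of the reticulum, differed by -0.01 ± 0.08 with deficient and by -0.07 ± 0.08 with excess lysine.

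Regulators of the fast programme showed no common direction with deficient lysine. Of 11 measured of 13, 6 were higher and 5 lower than with adequate lysine (median 0.01). The median ran from -0.08 to 0.04 with 1 pig left out. MYOD1 differed by 0.40 ± 0.23, EYA1, a transcription cofactor, by -0.45 ± 0.31 and TBX15 by -0.21 ± 0.16. With excess lysine 8 of 11 were lower (median -0.11), and without excess pig 11 it was 4 of 11 (median 0.08). The median was -0.01 without adequate pig 6, -0.07 without adequate pig 7 and -0.05 without excess pig 10. The homeobox factor PROX1, the 1 of 11 at an unadjusted limma p under 0.05 and higher, beside 1.35% of probe sets, differed by 0.50 ± 0.19, TEAD1 by 0.13 ± 0.09 and EYA4 by -0.22 ± 0.16. Between deficient and excess pigs 6 were higher and 5 lower (median 0.09). The median turned to -0.03 without excess pig 11 and to -0.01 after quantile normalization, and was 0.06 without deficient pig 2 or 3 and 0.16 without excess pig 9. Named by their p were EYA4, with a difference of 0.28 ± 0.16, PROX1, with -0.28 ± 0.19, and TEAD1, with -0.13 ± 0.09.

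**Figure D5:**
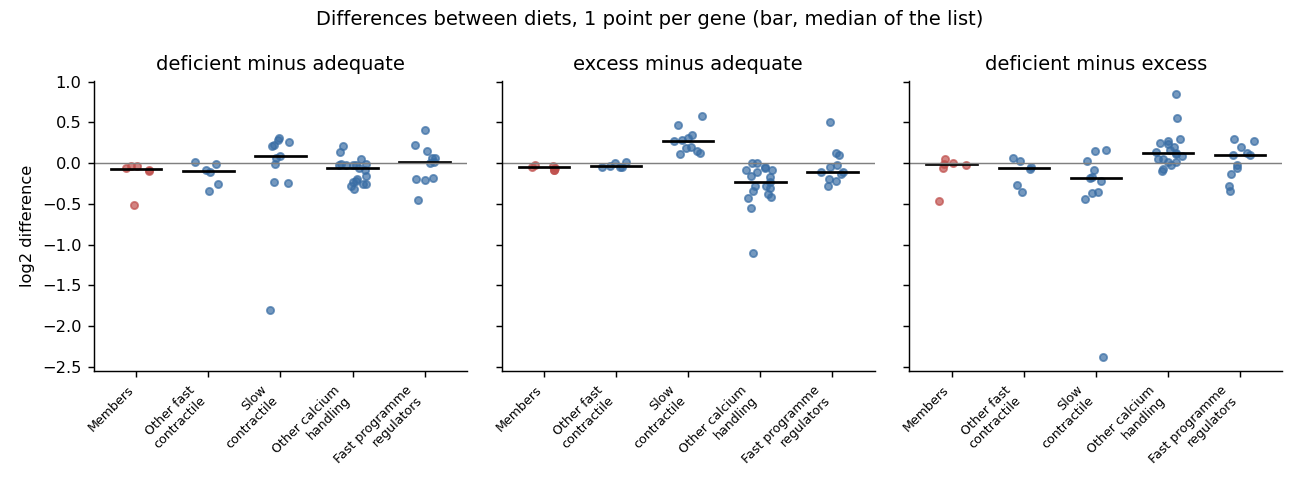
Log2 difference between diets (vertical axis) of each measured gene in 5 groups, with a bar at the median; the 6 members are in red. With excess against adequate lysine the members lie between -0.08 and -0.02, the slow contractile genes above 0 with a median of 0.28, and the other calcium-handling genes at a median of -0.23.

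Markers of other cell types were summed beside the members. The mean level of the 7 fibroblast and matrix markers measured (of 8) ran from 9.68 to 10.1 in deficient pigs, from 10.2 to 10.56 in adequate pigs and from 9.60 to 10.1 in excess pigs. Both diets thus lay below the adequate pigs. In each, 7 of 7 of these markers had lower means, beside 47% of all probe sets with deficient and 49.8% with excess lysine. Adequate pig 5 was highest for 7 of 7. Without it the median difference went from -0.45 to -0.36 with deficient lysine, with 6 lower and 1 higher. With excess lysine it went from -0.41 to -0.27 without adequate pig 5 and to -0.26 without excess pig 11, with 7 lower in each case. The 6 measured adipocyte markers (of 8) averaged 7.17 to 7.52 in deficient, 6.96 to 7.32 in adequate and 6.77 to 6.97 in excess pigs, and the 5 measured smooth muscle and pericyte markers (of 6) 8.51 to 8.69, 8.77 to 9.13 and 8.34 to 8.87. The 4 measured endothelial markers (of 6) averaged 7.11 to 7.47, 6.99 to 7.23 and 6.97 to 7.52, and the 4 measured leukocyte markers (of 6) 5.14 to 5.32, 5.33 to 5.45 and 5.13 to 5.48 in the same order. For the smooth muscle and leukocyte markers too, the mean levels of the deficient pigs lay below those of the adequate pigs. The leukocyte separation was narrow, between 5.316 and 5.331, and 1 of the 4 markers lay under the median of all probe sets. The 3 measured erythrocyte markers (of 4) and 1 measured nerve marker (of 5) lay under the median of all probe sets. The part of these cells in the differences of the members was not tested.

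The genes whose pattern over the 9 arrays was most like a member's were sought among 6834 genes whose mean reached the median of all probe sets, as a description without a test. For PVALB these were FDXACB1 (Pearson r = 0.965), KDM3A (r = 0.937) and CA3, carbonic anhydrase of muscle (r = 0.933). Without excess pig 11 these were 0.968, 0.935 and 0.942, which then ranked 3, 15 and 11 for likeness to PVALB. Without deficient pig 1, the lowest pig for all 4 genes, the values were 0.889, 0.813 and 0.812. CA3 gave 12.58, 12.78 and 12.87 in deficient, 13.01, 13.06 and 13.07 in adequate and 13.07, 12.99 and 12.93 in excess pigs, so that its deficient pigs too lay below all others. It was picked for its likeness to PVALB, so this is no separate evidence. For FDXACB1, picked in the same way, deficient pig 3, at 5.74, lay above adequate pig 7, at 5.70.

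For ATP2A1 the most alike were LOC100154179 (r = 0.969), EEF1D, a subunit of translation elongation factor 1 (r = 0.965), and SLC23A3 (r = 0.950). For CASQ1 they were TMEM39A (0.949), CSPP1 (0.932) and RICTOR (0.905). For MYL1 they were BANF1 (0.923), NDUFB1 (0.875) and NAF1 (0.839), for MYLPF TWF1 (0.854), RBM26 (0.843) and AGTPBP1 (0.835), and for TNNC2 ZNF18 (0.876), TWF1 (0.870) and C16H5orf34 (0.822). Without excess pig 11 the lowest of these 15 values was 0.822, for AGTPBP1. Which genes were most alike depended on that pig, since their ranks without it ran from 1 (TMEM39A) to 29 (NDUFB1). NAF1 and AGTPBP1 ranked 21 and RICTOR 14. Over all 9 arrays no member was among the 3 most alike of another member. TWF1, an actin-binding protein, was the one gene named for 2 of them.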

How the data were processed

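Per the labels' protocols, total RNA from about 50 mg of frozen muscle was extracted with TRIzol, amplified to sense-strand cDNA, labelled with biotin and hybridised to Affymetrix whole-transcript arrays, 1 per pig. The deposited values are the authors' log2 expression values per probe set. The log base is inferred from their range, and how probes were corrected, summarised and normalized is not given in the sources used here. Per the submitters' processing notes, the tools included GCOS 1.2 and Partek. Gene symbols came from the platform annotation, updated through Entrez IDs: 13323 probe sets had 1 symbol, 357 several and 13878 none. No coordinates or sequences are given, since no genome build is stated. No values were scaled or filtered.

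All 27558 probe sets on the 9 arrays were fitted by limma 3.58.1 (lmFit and eBayes, R 4.3.3), with the 3 diet means as coefficients. Tests were two-sided with Benjamini-Hochberg adjustment over all probe sets and a threshold of 0.05. The fit was tested on simulated data. Ratios of fast to slow genes were compared by exact permutation over pigs. A gene with several probe sets was read from the one with the highest mean. The ratio of ATP2A1 to ATP2A2 was planned but ATP2A2 was not analysed here. The members and gene lists were chosen with earlier results of these data known. Named genes were the 6 members, 4 slow partners, up to 3 genes per list and comparison with the smallest p, and the 3 genes most alike each member; ACTA1, NEB, MYH7, RYR1, MYOZ1 and the extremes of ranges were named besides. The 3 pigs of a group are separate animals, and their number limits the precision.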

Additional observations from a re-analysis of the deposited data

How the results depend on the processing

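Each of the 18 member differences was recomputed under 18 alternatives. The deposited values were quantile normalized or centred on array medians. Other fits used the 6 arrays compared alone, an intensity trend with a robust prior, array quality weights or a covariate for array SD. Further fits used probe sets with 1 symbol, left out the dimmest 25 percent or took gene means over probe sets. Each of the 9 pigs was also left out. In 13 of the 18 the sign held throughout, but several alternatives could not change a member's difference and so do not test its sign. These were the 6 arrays alone, the intensity trend, probe sets with 1 symbol, the dimmest 25 percent left out and gene means. Leaving out a pig of the diet not compared could not change the difference either. Such alternatives could change only the p-values. No member passed the adjusted threshold under any alternative. The difference of PVALB between deficient and adequate pigs ran from -0.68 to -0.31 (limma adjusted p from 0.599 to 1.00), and between deficient and excess pigs from -0.62 to -0.25 (adjusted p from 0.36 to 1.00). The unadjusted limma p of the latter was over 0.05 in 6 alternatives, the highest being 0.0905 with array quality weights.

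Signs turned for small differences, and the cause was not tested. Between deficient and excess pigs, quantile normalization, median centring, array quality weights and the SD covariate gave TNNC2 differences of 0.019, 0.034, 0.024 and 0.0028 in place of -0.02, and the first 2 gave ATP2A1 differences of 0.033 and 0.038 in place of -0.01. PVALB between excess and adequate pigs was 0.032 with the SD covariate. With pigs left out, deficient minus excess ran from -0.0085 to 0.029 for MYL1, from -0.042 to 0.024 for TNNC2 and from -0.045 to 0.032 for ATP2A1, and excess minus adequate from -0.060 to 0.019 for MYLPF. MYLPF over MYL2, deficient minus adequate, ran from -0.16 to 0.059. CASQ1 over CASQ2 ran from -0.91 to 0.25 for deficient minus adequate, from -0.92 to 0.24 for excess minus adequate and from -0.29 to 0.29 for deficient minus excess. The other 8 ratio differences kept their sign.

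The count of probe sets past an adjusted p of 0.05, 0 with all arrays, was 1 with array quality weights for deficient against adequate pigs and for any diet, and 1 with single-symbol probe sets for deficient against excess pigs. At an unadjusted p under 0.05 the counts of 511, 981 and 1124 became 233 to 2207, 272 to 4638 and 456 to 3969. The extremes came from probe sets with 1 symbol (fewer tested) and array quality weights for the first, and from those weights and from leaving out excess pig 9 for the other two. No paired analysis was possible because the diets share no pig numbers.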
